A study of Bos taurus with 8 samples.

Results

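ACTB, GAPDH and B2M, genes in common use as qPCR references, were described across blood mononuclear cells of 2 kinds of cattle before and after heat. They were found by their Ensembl identifiers, ENSBTAG00000026199 for ACTB, ENSBTAG00000014731 for GAPDH and ENSBTAG00000012330 for B2M. These are 3 of the 24596 genes listed, and all 3 passed the filter on low counts. The question was whether their RNA held steady over the 4 groups. The groups were Crossbred cattle at day 0 and at day 7, and Tharparkar cattle, an Indian zebu breed, at day 0 and at day 7. Day 0 is before heat exposure and day 7 is after 7 days of it, although the stress label reads heat stress for day 0 samples too. Per the labels, each group is 1 pool of RNA from 5 animals. The labels give neither the ages of the animals nor the breeds behind the cross.

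ACTB encodes beta-actin, a building block of the cytoskeleton of nearly every cell, and it is abundant in motile blood cells. GAPDH encodes a glycolytic enzyme that oxidises glyceraldehyde 3-phosphate. B2M encodes beta-2-microglobulin, the small invariant chain that accompanies MHC class I molecules on the surface of nucleated cells, and it is known to respond to interferon. A qPCR reference gene is used as the yardstick for other genes, so any difference in its own level is passed on to every gene measured against it.

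Each group has 2 files labelled as replicates, with total expected counts (estimated reads per gene) of between 5173115 and 8593506 per file. Within a group the 2 files differed by less than the sampling noise: the median chi-square over genes was between 0.0762 and 0.112 of what independent reads of 1 library give. They were counted as 1 library, so n = 1 in each group and no group could be tested against another. Variation among animals was not measured. Intervals below are 95% counting intervals. They cover the error of counting reads and nothing else. No molecular identifiers mark the reads, so reads copied from 1 molecule could not be told apart. The tables pair no identifier with a gene name, so markers of blood cell types were not evaluated here. In bulk RNA, fewer cells of a type and less RNA per cell cannot be told apart.

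ACTB was among the most abundant genes of every library. Its TPM (transcripts per 1000000, a level per length) in the 2 files was 5689.7 and 5649 in Crossbred at day 0, and 5904 and 5882 in Crossbred at day 7. In Tharparkar it was 6257 and 6236 at day 0, and 5989.7 and 5929 at day 7. Tharparkar at day 0 was the highest and Crossbred at day 0 the lowest. Since the 2 files of a group are nearly the same library, their closeness is no replicate check, here or for the other 2 genes. By TPM the gene ranked between 16 and 24 among all genes. ACTB took 0.869% of counts (Wilson interval 0.863 to 0.875) and 0.916% (0.910 to 0.923) in Crossbred at days 0 and 7. In Tharparkar the share was 1.05% (1.04 to 1.05) and 0.988% (0.979 to 0.996). ACTB is the only one of the 3 with counts that are not whole, in each of the 8 files. Fractions of this kind come from reads that fit more than 1 gene, which makes its level less certain than those of the other two. Its share was lower in the second file of all 4 groups, by between 0.475% and 0.982%. The counting error of independent reads would cover this. The 2 files are nearly the same library, so that limit is too wide to judge the shift.

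GAPDH was the least abundant of the 3 in TPM. The 2 files gave a TPM of 1536 and 1542 in Crossbred at day 0, and 1367 and 1373 in Crossbred at day 7. In Tharparkar they gave 1429 and 1425 at day 0, and 1470.2 and 1467 at day 7. Crossbred at day 7 was the lowest and Crossbred at day 0 the highest, so on this scale both extremes lay in 1 breed. GAPDH ranked between 128 and 137 by TPM. GAPDH took 0.128% of counts (0.125 to 0.130) and 0.115% (0.113 to 0.118) in Crossbred at days 0 and 7. The Tharparkar shares were 0.129% (0.127 to 0.132) and 0.132% (0.129 to 0.135), and these last intervals overlap each other and that of Crossbred at day 0. Every GAPDH count was whole.

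B2M had the highest TPM of the 3 in every file. The values were 11907 and 11921.5 in Crossbred at day 0, and 10835 and 10902 in Crossbred at day 7. In Tharparkar they were 10164 and 10199 at day 0, and 11992 and 12029 at day 7. Crossbred at day 0 and Tharparkar at day 7 were the 2 high groups, and they lay close to each other. B2M ranked between 4 and 8 by TPM. B2M took 0.828% of counts (0.822 to 0.834) and 0.766% (0.760 to 0.772) in Crossbred at days 0 and 7, while in the Tharparkar libraries it took 0.773% (0.766 to 0.780) and 0.902% (0.894 to 0.910). The counts of B2M were whole in all 8 files.

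**Figure D1:**
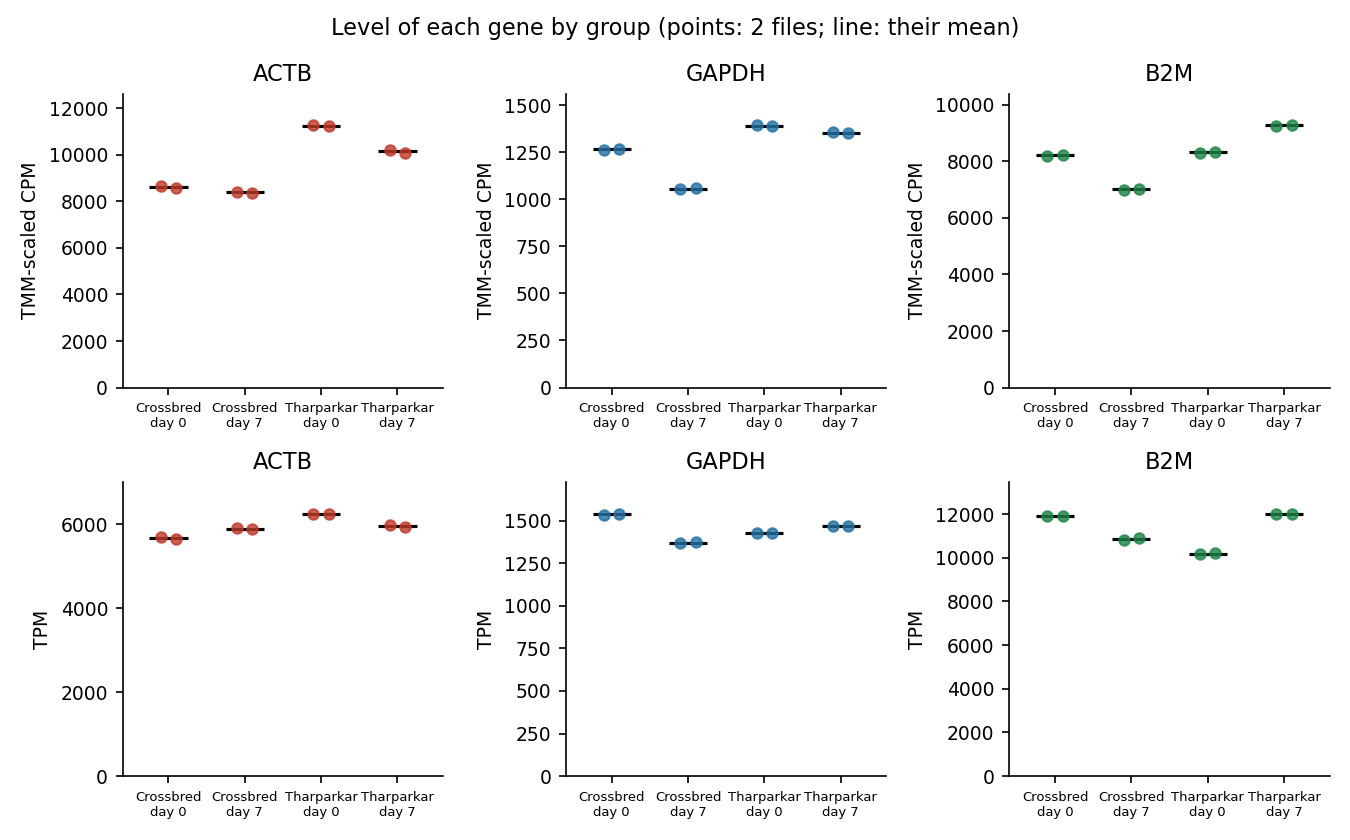
Level of ACTB, GAPDH and B2M (columns) in the 4 groups, as TMM-scaled CPM (counts per 1000000, upper row) and as deposited TPM (lower row), on axes that start at 0. Points are the 2 files of a group and the line is their mean; for ACTB the Tharparkar groups stand above the Crossbred groups by a wider margin in the upper row than in the lower one.

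For comparisons between libraries, CPM (counts per 1000000) were scaled with TMM factors, which level the bulk of genes. These are not levels per length, so the 3 genes are not compared with each other on this scale. For ACTB the scaled level was 8617 and 8392 in Crossbred at days 0 and 7, and 11253 and 10149 in Tharparkar. For GAPDH it was 1266 and 1056 in Crossbred, and 1391 and 1353 in Tharparkar. For B2M it was 8209 and 7016 in Crossbred, and 8316 and 9268 in Tharparkar. All 3 genes were lowest in Crossbred at day 7. The highest group was Tharparkar at day 0 for ACTB and GAPDH, and Tharparkar at day 7 for B2M. Neighbours in these orders that differed little were the Crossbred days for ACTB, the Tharparkar days for GAPDH and the breeds at day 0 for B2M.

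The change at day 7 differed from gene to gene and from breed to breed. A gene was called changed at an absolute log2 difference of at least 1. None of the 3 genes was called in Crossbred, where 12.8% of all 11711 tested genes were, and none in Tharparkar, where 8.27% were. In Crossbred, B2M had a log2 difference of -0.23 (-0.24 to -0.21) at day 7, or 0.855 of its day 0 level. GAPDH stood at -0.26 (-0.30 to -0.22), or 0.834 of its day 0 level. Total counts and TPM kept both signs with smaller sizes, at -0.11 with total counts and -0.13 with TPM for B2M, and -0.15 and -0.17 for GAPDH. ACTB differed by only -0.04 (-0.05 to -0.02) with TMM, and its sign turned under other scalings, to 0.08 with total counts and with FPKM and 0.06 with TPM. Set beside these, the median size of the log2 difference over all tested genes was 0.39.

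In Tharparkar the order was another. B2M was higher at day 7, with a log2 difference of 0.16 (0.14 to 0.17), or 1.11-fold. ACTB was lower, with a log2 difference of -0.15 (-0.17 to -0.13), or 0.902-fold. With total counts and TPM, B2M had values of 0.22 and 0.24, and ACTB of -0.082 and -0.068. GAPDH, at -0.04 (-0.09 to 0.01), did not differ beyond counting error with TMM and took values between 0.03 and 0.04 with total counts, TPM and FPKM. The median size over all tested genes was 0.30 in this comparison.

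The difference between the breeds in their change, Tharparkar minus Crossbred, was 0.38 (0.36 to 0.41) for B2M on the log2 scale. B2M was lower at day 7 in Crossbred and higher in Tharparkar with TMM, DESeq2 size factors, total counts, TPM and FPKM, but set against GAPDH it was not lower in Crossbred (0.04, -0.01 to 0.08). A difference of this size was not unusual: the median size over all tested genes was 0.57, and that of B2M was larger than 35.5% of them. For GAPDH the difference was 0.22 (0.16 to 0.28), and for ACTB -0.11 (-0.13 to -0.09). No member reached 1 log2 unit, against 27% of all tested genes. With 1 pool a group, none of these differences was tested.

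Between the breeds, every one of the 3 genes was higher in Tharparkar at day 7. The log2 difference was 0.40 (0.38 to 0.42) for B2M, 0.36 (0.31 to 0.40) for GAPDH and 0.27 (0.26 to 0.29) for ACTB. The direction was the same with DESeq2 size factors, total counts, TPM and FPKM, but the size was not: with TPM the values were 0.14, 0.10 and 0.02. Set against GAPDH instead, ACTB was lower in Tharparkar at day 7, with a log2 difference of the ratio of -0.08 (-0.13 to -0.04). The median size over all tested genes was 0.41 at day 7. At day 0 ACTB was higher in Tharparkar by 0.39 (0.37 to 0.40), or 1.31-fold, and by 0.14 with TPM. The median size over all tested genes was 0.28 at day 0, and the TMM difference of ACTB was larger than that of 62.5% of them and of 74.5% of those at a mean of at least 100 CPM. GAPDH was higher by 0.14 (0.10 to 0.18) with TMM, yet its value was -0.11 with TPM. B2M differed by 0.02 (0.00 to 0.04), barely beyond counting error, with TMM and by -0.10 with total counts and -0.23 with TPM. None of the 3 was called between the breeds, where 7.02% of all tested genes were called at day 0 and 14.9% at day 7.

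**Figure D2:**
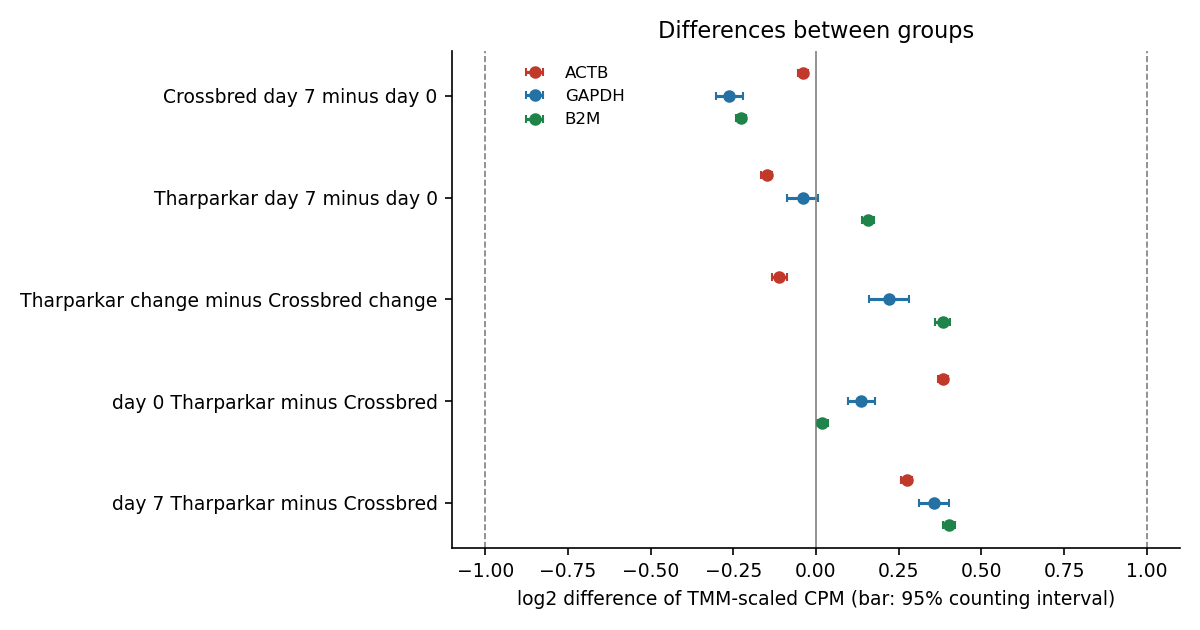
Log2 difference of TMM-scaled CPM for ACTB, GAPDH and B2M (colours) in 5 comparisons of groups, with 95% counting intervals as bars and the limit of 1 log2 unit as dashed lines. All points lie within 0.5 log2 units of 0, B2M changes side between the first and second comparison, and all 3 genes lie on the Tharparkar side in the last.

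The range, which is the highest minus the lowest of the 4 groups on the log2 scale, was alike for the 3 genes. It was 0.42 (0.41 to 0.44) for ACTB, 0.40 (0.38 to 0.42) for B2M and 0.40 (0.36 to 0.44) for GAPDH, or between 1.32-fold and 1.34-fold. All 3 were below 0.5, as were 33.6% of all tested genes and 47.4% of the 1681 genes at a mean of at least 100 CPM. How much counting adds to the range of such genes was not measured. A range below 1 was found for 74.5% of all tested genes and 87.6% of those abundant genes. The median range was 0.65 over all tested genes, 0.52 over the abundant ones, and 0.58 over the 153 genes at a mean of at least 1000 CPM.

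Some genes of like abundance were steadier than the 3 references. Among the 153 genes at a mean of at least 1000 CPM, the class that holds all 3, 19.0% had a smaller range than ACTB, 15.0% than B2M and 13.7% than GAPDH. Over the wider class, a smaller range than that of ACTB was found for 606 of the 1681 abundant genes (36.0%), than that of B2M for 551 (32.8%), and than that of GAPDH for 536 (31.9%). These shares depend on the scaling, since TMM gave wider ranges for the 3 genes than other scalings did. With total counts the ranges were 0.27, 0.24 and 0.19 for ACTB, B2M and GAPDH, and 18.0%, 13.1% and 8.21% of the abundant genes were steadier. With TPM they were 0.14, 0.24 and 0.17, and 3.51%, 13.4% and 5.77% were. GAPDH therefore had the smallest range with total counts and ACTB the smallest with TPM. B2M had a range of between 0.24 and 0.40 over TMM, DESeq2 size factors, total counts, TPM and FPKM, and that of ACTB moved the most between them.

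The pattern behind the range differed by gene and by scaling. With TMM, of the sum of squares of the 4 log2 levels of ACTB, 90.2% lay between the breeds, 7.26% between the days, and 2.55% in the contrast of breed by day. For GAPDH these TMM shares were 63.5%, 23.7% and 12.8%. B2M had 53.8% between the breeds, 1.49% between the days and 44.7% in the contrast of breed by day. With TPM, the share between the breeds was 61.2% for ACTB, 0.121% for GAPDH and 4.38% for B2M, and the contrast of breed by day held 38.5%, 73.1% and 88.4%. With total counts the breeds held 84.8%, 49.7% and 13.0%, and breed by day 15.2%, 33.8% and 78.4%. ACTB had most of its sum of squares between the breeds on each of these scales, while the larger part of GAPDH and of B2M depended on the scale.

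**Figure D3:**
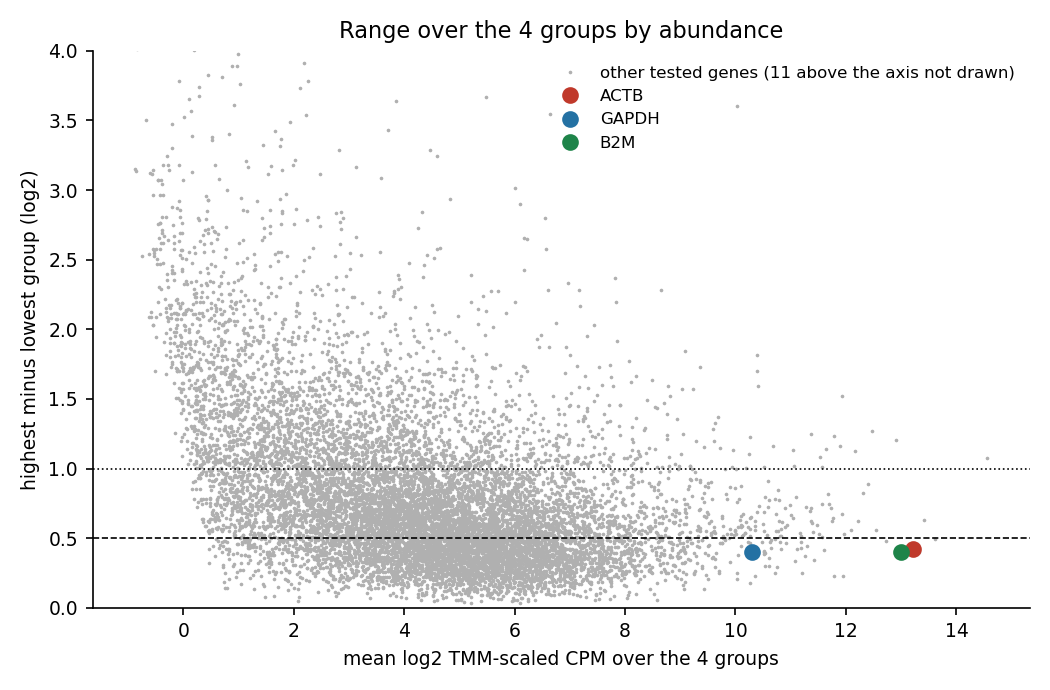
Range over the 4 groups (highest minus lowest, log2) against mean log2 TMM-scaled CPM, for every tested gene (grey) and for ACTB, GAPDH and B2M (colours). The dashed line marks 0.5 and the dotted line 1; the 3 genes lie below 0.5 at the abundant end, with many grey points of the same or lower range at moderate abundance.

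A ratio of 2 genes within a library needs no scaling between libraries, and it is what a qPCR experiment compares when 1 reference is checked against another. B2M against ACTB gave count ratios of 0.953 (0.943 to 0.963) in Crossbred at day 0 and 0.836 (0.827 to 0.845) at day 7. In Tharparkar the ratio was 0.739 (0.731 to 0.747) at day 0 and 0.913 (0.902 to 0.925) at day 7. No 2 of these intervals overlap. The ratio was thus lower after heat in Crossbred, at 0.878 of its day 0 value, and higher after heat in Tharparkar, at 1.24-fold. On the log2 scale the changes were -0.19 (-0.21 to -0.17) and 0.31 (0.28 to 0.33), and their difference was 0.49 (0.46 to 0.53). The ratio of the levels per length, from TPM, was 2.10 and 1.84 in Crossbred and 1.63 and 2.02 in Tharparkar at days 0 and 7. The 2 files of a group gave nearly the same TPM ratio, for example 1.62 and 1.64 in Tharparkar at day 0.

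ACTB against GAPDH moved the other way. The count ratio was 6.81 (6.67 to 6.95) in Crossbred at day 0 and 7.95 (7.78 to 8.13) at day 7. In Tharparkar it was 8.09 (7.91 to 8.27) at day 0 and 7.50 (7.31 to 7.69) at day 7. Crossbred at day 0 was the lowest group, with an interval clear of the other three. On the log2 scale the Crossbred ratio differed by 0.22 (0.18 to 0.27) at day 7, and the Tharparkar ratio by -0.11 (-0.16 to -0.06).

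B2M against GAPDH was the steadiest pair. Its count ratio was 6.49 (6.36 to 6.62) and 6.65 (6.50 to 6.80) in Crossbred at days 0 and 7, and 5.98 (5.84 to 6.11) and 6.85 (6.68 to 7.03) in Tharparkar. The 2 Crossbred intervals overlap, and Tharparkar at day 0 was the low group. The log2 change at day 7 was 0.04 (-0.01 to 0.08) in Crossbred, which is within counting error, and 0.20 (0.15 to 0.25) in Tharparkar.

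Over the 4 groups the log2 ratio ranged over 0.37 for B2M against ACTB, 0.25 for ACTB against GAPDH and 0.20 for B2M against GAPDH, that is 1.29-fold, 1.19-fold and 1.15-fold. Among all 1412040 pairs of the 1681 abundant genes, the median range was 0.72. A smaller range was found for 14.8% of pairs than for B2M against ACTB, for 5.75% than for ACTB against GAPDH, and for 3.09% than for B2M against GAPDH. Many of these pairs hold genes less abundant than the 3, and pairs within the class at a mean of at least 1000 CPM were not ranked. The mean SD of the log2 ratio of a gene to the other two was 0.10 for GAPDH, 0.12 for B2M and 0.14 for ACTB. Within this trio GAPDH was thus the gene whose ratios to the others varied least, and ACTB the one whose ratios varied most. The counts of ACTB are not whole, so both ratios that hold it are less certain than their counting intervals show.

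**Figure D4:**
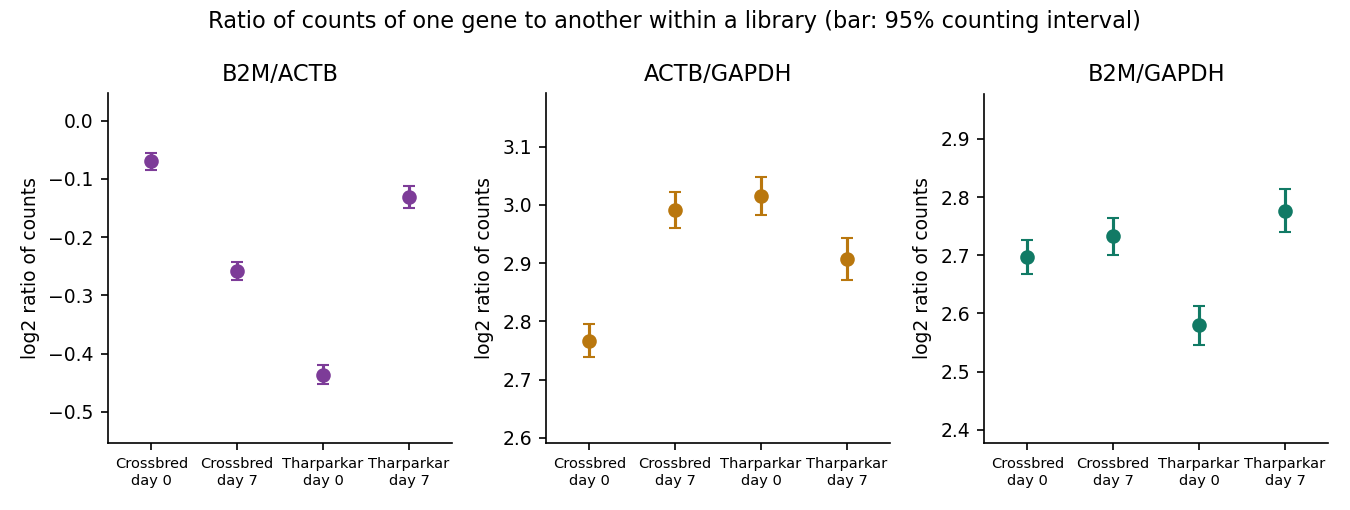
Log2 ratio of the counts of one gene to those of another within each of the 4 libraries, with 95% counting intervals as bars; the 3 panels span the same height on the log2 scale. B2M against ACTB is high in Crossbred at day 0 and Tharparkar at day 7 and low in the other 2 groups, and B2M against GAPDH is low in Tharparkar at day 0.

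What the choice of reference does to other genes was then counted by scaling the 4 libraries so that 1 of the 3 genes was level. Such a scaling moves the log2 difference of every gene by nearly the same amount, the member's own difference with its sign turned, so these counts restate the differences above as numbers of genes and are no separate evidence. With TMM, 877 genes were higher and 627 lower at day 7 in Crossbred, so 58.3% of those called were higher. Scaled to ACTB, 952 were higher and 575 lower (62.3%). Scaled to GAPDH, 1467 were higher and 352 lower (80.6%), and scaled to B2M, 1355 and 383 (78.0%). The number called grew only from 1504 to at most 1819, but the split between directions moved with the GAPDH and B2M values described above. Without a reference gene the share higher was 69.2% with total counts, 68.1% with TPM and 70.1% with FPKM, and 58.2% with DESeq2 size factors.

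For the Tharparkar change, TMM gave 439 genes higher and 530 lower at day 7 (45.3% higher). Scaling to ACTB turned this to 613 and 364 (62.7%), scaling to B2M to 313 and 727 (30.1%), and scaling to GAPDH gave 467 and 474 (49.6%). The direction with more genes also turned without a reference gene, to 52.5% higher with total counts, 57.1% with TPM and 54.9% with FPKM. Of the 969 genes called with TMM, 82.8% were called in the same direction with ACTB, 87.0% with B2M and 94.0% with GAPDH. These common genes were 82.1%, 81.1% and 96.8% of the calls made with each reference.

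For the breed by day difference, TMM gave 1398 genes with a higher and 1764 with a lower change in Tharparkar (44.2% higher). Scaled to ACTB the numbers were 1626 and 1540 (51.4%), to GAPDH 1021 and 2357 (30.2%), and to B2M 824 and 2870 (22.3%). The geometric mean of the 3 genes gave 1112 and 2184 (33.7%). B2M as the reference thus moved the split furthest from that of TMM. Scalings without a reference gene stayed nearer to TMM here, at 41.2% with total counts, 43.8% with TPM, 41.4% with FPKM and 45.0% with DESeq2 size factors.

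Between the breeds at day 0, TMM gave 363 genes higher and 459 lower in Tharparkar (44.2% higher). Scaling to B2M left this nearly as it was, at 331 and 475 (41.1%), while scaling to ACTB gave 164 and 1152 (12.5%) and to GAPDH 257 and 619 (29.3%). Only 47.3% of the 1316 calls made with ACTB were made with TMM as well. At day 7, TMM gave 595 and 1147 (34.2%), and each reference lowered the share that was higher in Tharparkar, to 15.2% with ACTB, 12.1% with GAPDH and 10.4% with B2M. The share was lower than with TMM without a reference gene too, at 20.7% with total counts and 15.3% with TPM, and at day 0 at 31.3% and 19.4%. The geometric mean of the 3 genes gave 12.8% in that comparison, and at day 0 it gave 25.4%. In the Tharparkar change it gave 46.0%, close to TMM, and in the Crossbred change 74.4%. Of the 5 comparisons, the split with the 3 genes together was thus close to that of TMM in the Tharparkar change alone.

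**Figure D5:**
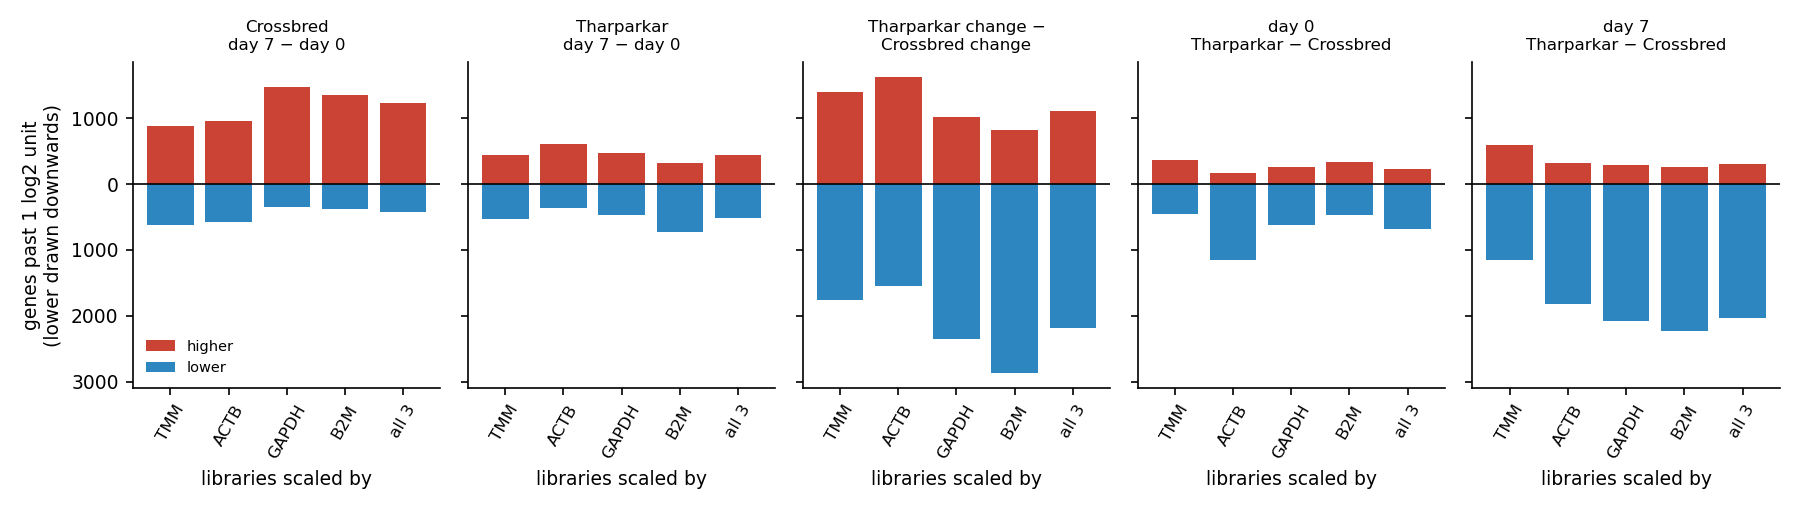
Number of genes at least 1 log2 unit higher (upwards) or lower (downwards) in 5 comparisons, with libraries scaled by TMM, by ACTB, GAPDH or B2M alone, or by the geometric mean of the 3. The split in Tharparkar at day 7 turns over between ACTB and B2M, and at day 7 between the breeds all references give more lower genes than TMM.

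The genes whose profile over the 4 groups was most like that of a member were sought among 1678 other abundant genes, by the largest absolute difference between the log2 levels after each was centred on its own mean. For GAPDH the closest was ENSBTAG00000009233, at most 0.01 away in any group, with TMM-scaled levels of 251 and 211 CPM in Crossbred at days 0 and 7, and 279 and 269 in Tharparkar. For B2M it was ENSBTAG00000019274, at most 0.02 away, with 137 and 120.1 in Crossbred and 142 and 159 in Tharparkar. ENSBTAG00000006189, at most 0.04 away, was closest to ACTB, with 2891 and 2705 in Crossbred and 3605 and 3337 in Tharparkar. The counts of this last gene are not whole, so its level is uncertain. Between the members the same measure was 0.12 for B2M and GAPDH, 0.15 for ACTB and GAPDH, and 0.21 for B2M and ACTB. These are fixed pairs, while the genes above are the closest of all that were searched, so the values are not comparable.

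The abundant gene with the smallest range was ENSBTAG00000047531, at 0.05 on the log2 scale. Its TMM-scaled level was 389.6 and 381 CPM in Crossbred at days 0 and 7, and 376 and 389.9 in Tharparkar. Next came ENSBTAG00000003034, with a range of 0.06 and levels between 172 and 178. Both have whole counts, and both ranges were the smallest by the choice of these genes, so they describe these 4 libraries only. The files pair none of these identifiers with a gene name.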

How the data were processed

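RNA sequencing covered 8 files in 4 groups of blood mononuclear cells. The labels' protocols give total RNA as the input of the libraries and RNA integrity numbers above 8. The submitters' processing notes name Bowtie2 and RSEM. Their versions, the genome build and the annotation are not given in the sources used here. Per the file headers, the deposited values are expected counts (estimated, not always whole), TPM and FPKM for the same 24596 genes in every file, with gene length and effective length in bases. The deposited TPM and FPKM values are scaled by effective length.

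The mean expected counts of the 2 files of a group were filtered with filterByExpr (11711 genes kept), scaled with TMM factors (1.01, 1.09, 0.930 and 0.974 for Crossbred days 0 and 7 and Tharparkar days 0 and 7) and turned into log2 CPM (prior count 2) in edgeR 4.0.16 and R 4.3.3. Files counted as 1 library below a chi-square ratio of 1.5, over genes with at least 20 counts. Intervals are exact Clopper-Pearson on 2 counts, Wilson for shares, and by the delta method for differences of changes and for changes of ratios. For ranges the interval is that of the highest against the lowest group. Steps were tested on simulated data. The edgeR quasi-likelihood test on all 8 files (counts rounded, Benjamini-Hochberg adjusted p under 0.05), DESeq2 1.42.0 size factors, total counts, log2(TPM + 1) and log2(FPKM + 1), filters and prior counts were alternatives. The shares of steadier genes and of the sum of squares under other scalings were added after seeing the data.

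The members and lists were chosen with earlier results of these data known. The rule for named genes took the 3 members, listed reference and pathway genes, the genes closest to each member and the steadiest genes, with at most 2 identifiers of each kind where no name is paired. The 12 lists (179 symbols: other reference genes, actin cytoskeleton, glycolysis, class I antigen presentation and markers of 8 cell types) were not evaluated, since 0 of the symbols occur in the tables and 0 of the identifiers in the RefSeq gene table of ARS-UCD2.0.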

Additional observations from a re-analysis of the deposited data

Results flagged for a closer look

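B2M is listed here because both Crossbred files were lower at day 7 than at day 0 and both Tharparkar files were higher. The breeds' changes differed by 0.383 on the log2 scale, and this difference was not tested. It was smaller than the median size over all tested genes, 0.57, and over those at a mean of at least 100 CPM, 0.43. The ratio of B2M to ACTB, which needs no scaling, was 0.878 of its day 0 value at day 7 in Crossbred and 1.24-fold in Tharparkar. The ratio of B2M to GAPDH, equally free of scaling, was 1.02-fold in Crossbred, within counting error, and 1.15-fold in Tharparkar, a difference of 0.16 (0.10 to 0.23) on the log2 scale. The second file of each group is nearly the same library as the first, so the files are not independent evidence. Cell type markers were not evaluated, and the part of cell composition in this difference was not tested.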

How the results depend on the processing

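Of the 15 differences of the 3 genes between groups, 11 kept their sign under every alternative run for them, which leaves out scaling to 1 of the 3 genes. None of the 216 values that left out 1 file moved beyond counting error (1.5 times for counts of genes), but the files of a group are nearly the same library, so this says nothing about stability. DESeq2 size factors and a prior count of 0.5 moved no result. The ratios between genes did not move with TPM or FPKM either. Each gene's effective length was nearly the same in every file, so this was fixed beforehand and says nothing about stability. The cause of the shifts below was not tested, except that filters change which genes are tested and that edgeR's test uses another criterion.

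With total counts, ACTB had a range of 0.27 and differences of 0.077 (Crossbred change), -0.082 (Tharparkar change), -0.16 (their difference), 0.27 (breeds, day 0) and 0.11 (breeds, day 7). GAPDH had a range of 0.19, with -0.15 and 0.026 for the changes and 0.018 and 0.19 between breeds. B2M had a range of 0.24, changes of -0.11 and 0.22, their difference 0.33, and -0.10 and 0.24 between breeds. FPKM gave the same to 2 decimals, save 0.34 for the difference of the B2M changes, and with one more decimal 0.076 and -0.082 for the ACTB changes, 0.027 for the GAPDH change in Tharparkar and 0.018 for GAPDH at day 0. With TPM, ACTB had a range of 0.14, changes of 0.056 and -0.068, and 0.14 and 0.016 between breeds. GAPDH had 0.17, -0.17 and 0.041, and -0.11 and 0.10. B2M had 0.24, -0.13 and 0.24, and -0.23 and 0.14. Against TMM, the median log2 difference of all genes moved by up to -0.16 with total counts and -0.22 with TPM, both between the breeds at day 7.

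A filter at a mean of 10 CPM gave ACTB a range of 0.38, a Crossbred change of -0.016 and breed differences of 0.36 and 0.24. B2M then had a range of 0.37, a Crossbred change of -0.20 and breed differences of -0.0017 and 0.37.

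Genes past 1 log2 unit numbered 1504 (Crossbred change), 969 (Tharparkar change), 3162 (difference of changes), 822 (breeds, day 0) and 1742 (breeds, day 7) with TMM. In that order, the filter at 10 gave 573, 280, 1556, 221 and 708. No filter gave 1624 for the Tharparkar change and 1368 between breeds at day 0. TPM gave 967 and 443 for the changes and 501 at day 0, and FPKM 945, 443 and 411. Scaling to ACTB gave 1316 at day 0. The genes higher were 69.2% of calls in the Crossbred change with total counts, 68.1% with TPM and 70.1% with FPKM. They were 57.1% in the Tharparkar change with TPM, and with total counts, TPM and FPKM in turn 31.3%, 19.4% and 32.6% for the day 0 breed difference and 20.7%, 15.3% and 20.7% for that of day 7.

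With the files as replicates, which compares libraries and not conditions, edgeR's quasi-likelihood test called 7686, 5575, 7334, 5965 and 7425 genes without a replicate block, and 7692, 5580, 7338, 5973 and 7427 with the replicate number as a block. The 3 genes' differences stayed within counting error of the values above in both fits. The numbers are no pairing from the design: deviations of same-numbered files correlated between -0.30 and 0.25 over 7769 genes.

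Counting limits the log2 differences of ACTB and B2M to about 0.02, and those of GAPDH between a pair of groups to about 0.05. The interval is wider for the difference of the GAPDH changes, at 0.22 (0.16 to 0.28). The choice of scaling moved some of these differences by more than counting error. Between the breeds at day 0, ACTB stood at 0.39 with TMM and 0.14 with TPM, and GAPDH at 0.14 and -0.11. 1 pool per group limits everything else.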
